A study of Mus musculus with 6 samples.

Results

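Type 2 conventional dendritic cells (cDC2) of the mouse lung were described in 6 single-cell libraries. A cell was counted as a member when it held at least 1 unique molecular identifier (UMI, 1 counted RNA molecule) of Flt3 or Cd209a and at least 10 UMIs of Cd74, H2-Ab1 and H2-Aa together. It also had to hold 0 UMIs of Xcr1, Clec9a and Siglech, under 2 of Ccr7, under 4 of C1qa, C1qb and C1qc together, under 2 of Ly6c2, and 0 of Cd3e, Cd79a, Marco and Cdh5. These measured values chose the members, so the levels of those genes and the number of members are given as description, with no test. The rule found 252 members among 76800 kept cells, where a kept barcode held no fewer than 500 UMIs and 300 detected genes, and less than 20% of its UMIs were mitochondrial. All mice were male C57BL/6J, 12 weeks old, and lungs were taken on day 3. There were 3 groups of 2 mice: a control group given PBS, a group given lipopolysaccharide (LPS, a bacterial cell wall component) at 1 mg/kg, and a group given the same LPS dose with SLC activation 7 times. The labels call it SLC-Gq and do not spell the abbreviation out, and the series title names the subcoeruleus nucleus, a brainstem nucleus, and the sympathetic nerves of the lung. No group with SLC activation alone was analysed here, so SLC activation could be compared only within mice given LPS. Libraries are called control 1, control 2, LPS 1, LPS 2, SLC+LPS 1 and SLC+LPS 2.

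Conventional dendritic cells arise under the growth factor receptor Flt3, take up antigen in the tissue and show it to T cells on MHC class II. The type 2 cells carry lectins such as Cd209a and Mgl2 and depend on the transcription factor Irf4, whereas the type 1 cells carry Xcr1 and Clec9a and depend on Irf8 and Batf3. On maturation dendritic cells raise Ccr7 and leave for the lymph node. In inflamed lung, cDC2 are known to take on interferon-induced and monocyte-like genes, and monocyte-derived cells can resemble them.

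The 6 libraries held 31589233 to 48641470 UMIs and 11608 to 13710 kept cells, with a median of 1134 to 2606 UMIs per kept cell. Members held more, with a median of 4361, 3442, 4146, 3428, 3674 and 2804 UMIs from control 1 to SLC+LPS 2. Any pair of libraries shared at most 6 barcodes of kept cells. Median mitochondrial content of all kept cells was 8.82% and 7.99% in the controls and 1.23% to 2.86% in the other 4 libraries, a gap that members did not show, with 7.61% and 6.79% in controls and 4.83% to 7.65% in the rest. Replicate numbers name mice and do not pair them across groups. Nothing in the labels beyond the number describes how the 2 mice of a group differed, so p-values measure the spread between these libraries.

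Members made up 0.544% of kept cells in control 1 (69 cells, 95% exact binomial interval 0.424% to 0.689%) and 1.08% in control 2 (134 cells, 0.903% to 1.27%). The share was 0.124% in LPS 1 (17 cells, 0.0722% to 0.198%) and 0.0517% in LPS 2 (6 cells, 0.0190% to 0.112%). It was 0.149% in SLC+LPS 1 (20 cells, 0.0910% to 0.230%) and 0.0464% in SLC+LPS 2 (6 cells, 0.0170% to 0.101%). Both controls lay above the other 4 libraries, and the LPS and SLC+LPS groups overlapped. The mean share of the control group was 0.811% ± 0.376, that of the LPS group 0.0878% ± 0.0511 and that of the SLC+LPS group 0.0977% ± 0.0725 (SD, n = 2 each). The mean in controls was 9.23 times that after LPS and 8.30 times that after SLC activation and LPS. The intervals reflect cell counting error alone, without the variation from mouse to mouse. A share does not give a number of cells per lung, and neutrophils took a larger part of the kept cells after LPS. Among kept cells that are not neutrophils the ratios were 6.47 and 5.08. When every kept cell was first thinned to 500 UMIs, the rule found 118, 154, 7, 3, 7 and 6 members, and the ratios were 28.2 and 22.

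**Figure D1:**
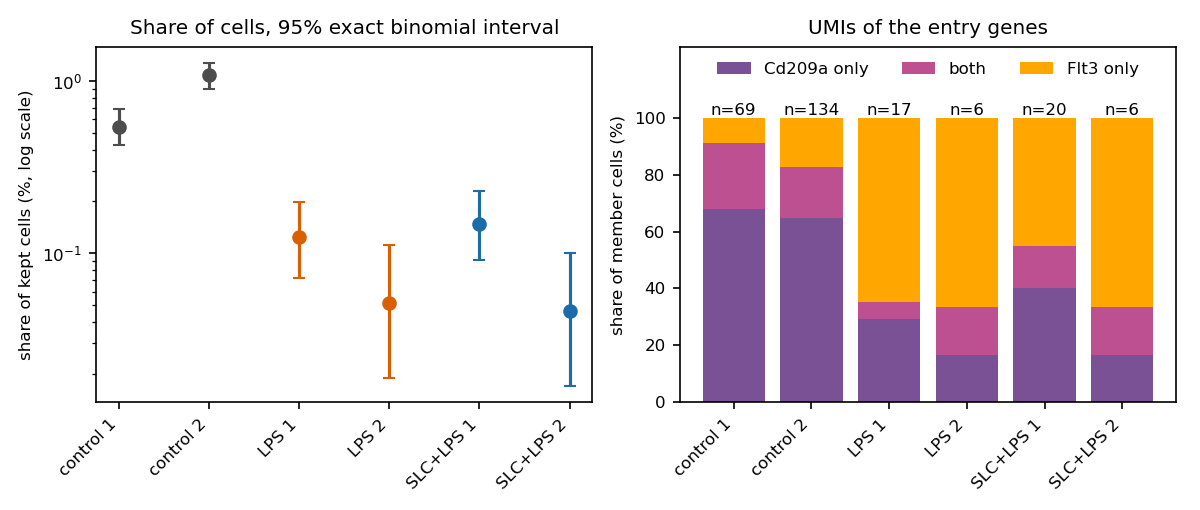
Left, share of kept cells (percent, log axis) that met the cDC2 rule in each of the 6 libraries, with bars for the 95% exact binomial interval; the controls stand at 0.544% and 1.08% and the other libraries at 0.0464% to 0.149%. Right, percent of the members in each library with UMIs of Cd209a only, of Flt3 only or of both; Cd209a-only members make up 68.1% and 64.9% in the controls and 16.7% to 40.0% elsewhere.

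The 2 genes that admit a cell did not weigh equally across the groups. Cd209a, a lectin of the DC-SIGN family, alone admitted 68.1% of members in control 1 (exact binomial 95% interval 55.8% to 78.8%) and 64.9% in control 2 (56.2% to 73.0%). It alone admitted 29.4% in LPS 1, 16.7% in LPS 2, 40.0% in SLC+LPS 1 and 16.7% in SLC+LPS 2. Members with a Flt3 UMI numbered 22, 47, 12, 5, 12 and 5 in the 6 libraries. With Flt3 as the sole entry gene the mean share was 0.276% for control, 0.0653% for LPS and 0.0640% for SLC+LPS libraries, so the ratios of controls to the other groups narrowed to 4.22 and 4.31. Many members stood at the edge of this criterion: 14, 39, 8, 2, 8 and 5 of them held exactly 1 UMI of Flt3 and Cd209a together. At the MHC class II limit there were 4, 5, 1, 1, 0 and 0 members at 10 to 14 UMIs, and 16, 23, 2, 0, 1 and 1 cells at 5 to 9 UMIs met every other criterion. The limit on Ly6c2, a monocyte gene, kept out 6, 2, 28, 7, 2 and 18 cells that met the rest of the rule, more than the members themselves in LPS 1, LPS 2 and SLC+LPS 2. With no limit on Ly6c2, an alternative added after the data were seen, the mean shares were 0.842%, 0.220% and 0.175%, and the ratios of controls to the other groups fell to 3.83 and 4.82.

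Levels are given in CPM, UMI counts scaled to the same total for the members of every library. Cd209a stood at 2386 and 1841 CPM in the controls, 205 and 337 CPM after LPS, and 622 and 271 CPM after SLC activation and LPS. Flt3 stood at 99.1 and 133, at 321 and 270, and at 184 and 339 CPM. The MHC class II gene H2-Ab1 stood at 14619 and 12853 CPM in the controls and 8053 to 11455 CPM in the other libraries. Cd74, the invariant chain that guides MHC class II, stood at 10417 and 9940 CPM against 3572 to 5697 CPM. Cd209a and both MHC class II genes were lower, and Flt3 higher, in each of the 4 libraries from mice given LPS than in either control. Both entry genes weigh on these values, since a cell without Cd209a needs Flt3 to enter.

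The label was checked against markers. In controls the genes with the largest ratio of members to all other kept cells were Cd209a (44.5 times), which is an entry gene so that the rule sets its ratio, Cd209c (39.6), Mgl2 (24.3), Dcstamp (19.3) and Flrt3 (13.8), followed by Mx2, Ehf, Ifit1, Clec4b1, Ctnnd2, Wnt11, Ifnb1, Mmp12, Tnip3 and AA467197. Mgl2 encodes the lectin CD301b and Clec4b1 a further lectin of dendritic cells. Cd3e, Xcr1, Clec9a and Cdh5 were at 0 by the rule, so they check nothing. Of the T cell list, Cd3d and Cd8a, outside the rule, were also at 0. Other genes of the lists of T cells (5 of 8 detected), type 1 dendritic cells (7 of 9) and endothelium (6 of 7) were found. The leading genes above were ranked in the controls alone, so the label was not checked this way in the other libraries. Mgl2, Clec4b1 and Irf4, outside the rule, were each lower in all 4 of those libraries than in either control. There the name cDC2 rests mainly on the rule. Of 18 genes listed for cDC2 identity and tested across all 6 libraries, Mgl2 fell and no other passed, with a median log2 change of -0.18. Classical monocyte markers summed to 838 and 589 CPM in the controls, 1811 and 1584 CPM after LPS and 1937 and 4202 CPM after SLC activation and LPS, with 8 of 8 markers detected. That list holds Plac8, which is described among the changed genes, and the rule itself limits Ly6c2. Plac8 alone gave 140 and 118 CPM of the sum in the controls and 1227 and 1045 CPM after LPS. After SLC activation and LPS it gave 461 and 2643 CPM. Neutrophil markers, 8 of 8 detected, summed to 414 and 220 CPM in the controls, 964 and 303 CPM after LPS and 542 and 949 CPM after SLC activation and LPS. The part of other cells in the results was not tested.

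Some members also carried RNA of stromal and epithelial cells. In control 1, 3 members and in control 2, 5 members held 10 or more UMIs of collagen, surfactant and Scgb3a2 genes, which was 95.8% and 85.1% of all such UMIs in members of those libraries. No member of the other 4 libraries did. Fibroblast markers (8 of 8 detected) summed to 11744 and 2665 CPM in the controls and 67.4 to 1212 CPM elsewhere, and alveolar type 2 and club cell markers (9 of 9 detected) to 1207 and 6428 CPM against 67.4 to 424 CPM. Alveolar macrophage markers summed to 2075, 2074, 1811, 33.7, 772 and 610 CPM with Marco at 0 by the rule, and interstitial macrophage markers to 718, 631, 336, 101, 300 and 271 CPM. Markers of migratory dendritic cells summed to 0 to 640 CPM, nonclassical monocytes to 407 to 775, group 2 innate lymphoid cells to 33.7 to 438, type 1 dendritic cells to 236 to 650 and B cells to 72.8 to 339 CPM. Markers of plasmacytoid dendritic, T, natural killer, endothelial and mast cells or basophils stayed at or under 67.8 CPM in each library. For each gene the percent of its level expected from free RNA was estimated from barcodes of 10 to 100 UMIs, in the group where the gene was highest, and is given where it is high. Free RNA was taken to make up 20.4%, 12.6%, 15.4%, 2.07%, 10.3% and 17.4% of the members' UMIs from control 1 to SLC+LPS 2. This was the lowest of 3 estimates, which rest on neutrophil, fibroblast and epithelial markers, so the percents given are at the low end and either of the others would raise them.

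Control members with and without a Flt3 UMI were set side by side over the listed genes. Of 186 listed genes with at least 100 CPM in either subset, 51 were higher and 47 lower in the Flt3-positive members of both controls, and 88 went opposite ways in the 2 controls. Genes that vary without regard to Flt3 would agree in direction in 2 controls about as often as not. The counts lie near that, so they show no set of genes that differs. Il12b, the p40 subunit of interleukin 12, stood at 1313 and 519 CPM in Flt3-positive members and 0 and 86.3 CPM in the others. It was found in 5 of 69 and 21 of 134 control members, and 1 cell held 53.0% and 27.1% of its UMIs. Plac8 stood at 286 and 220 CPM against 78.1 and 67.1 CPM, and Cadm1 at 217 and 175 CPM against 48.8 and 76.7 CPM. A single cell held 51.2% and 40.0% of the Plac8 UMIs and 48.3% and 9.80% of the Cadm1 UMIs in the 2 controls. Lower with Flt3 were Mmp12, a macrophage elastase (11.4 and 84.3 CPM against 576 and 182), and Cd36, a scavenger receptor (34.3 and 51.9 CPM against 107 and 185). Over all control members, 64.5% of the Cd36 level and 28.9% of the Cadm1 level was expected from free RNA. The genes named for this split were chosen after their values were seen, and the split uses a gene of the rule, so no test was made.

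Levels were compared between groups on counts summed over the members of each library, with edgeR's quasi-likelihood test and Benjamini-Hochberg adjustment, and a gene passed at an adjusted p under 0.05. The design asked for at least 10 members per library. LPS 2 and SLC+LPS 2, with 6 members each, fell short, so each treated group entered that fit with 1 library and the spread came from the 2 controls alone. A fit of all 6 libraries was therefore added after the data were seen. Its contrast of controls against the mean of the LPS and SLC+LPS groups used all the libraries and is described first.

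Across all 6 libraries, members from mice given LPS had less of the surface receptors Mgl2, Mrc1, Cd180, Cd81 and Cd14 and of the chemokine Ccl22. Of the listed genes, 1 of 10 tested for MHC class II (H2-Eb1) and 3 of 23 cytokines and chemokines (Tnf, Il12b, Ccl9) fell, and 4 of 17 monocyte-associated genes rose while 2 fell. Of 1949 genes tested 66 passed (3.39%), of which 10 rose (0.513%) and 56 fell (2.87%). The libraries did not overlap for 63 of the 66. The share of all tested genes without overlap was not counted, here or in the comparisons below. Some genes separate so few libraries without any difference, so such counts are description only. DESeq2 called 30 on the same sums. The count moved with the libraries entered: it was 39 without control 1, 187 without LPS 1, 169 without LPS 2, 8 without SLC+LPS 1 and 30 without SLC+LPS 2. Those fits tested 2159 to 3023 genes, so their counts are not shares. In the Flt3-positive members alone 33 of 1203 tested genes passed (2.74%). With library totals in place of TMM scaling factors 10 rose and 28 fell, and the median log2 change of all genes moved from -0.02 to 0.17.

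Mgl2 stood at 1303 and 2564 CPM in the controls, 58.4 and 101 CPM after LPS, and 646 and 67.8 CPM after SLC activation and LPS. Every library from a mouse given LPS was below both controls, and SLC+LPS 1 was the highest of these 4. Mgl2 fell by 3.59 on the log2 scale (SE 0.532, adjusted p = 0.00987). Mrc1, the mannose receptor, stood at 393 and 428, at 29.2 and 67.4, and at 115 and 0 CPM, and fell by 2.88 (SE 0.441, adjusted p = 0.00987). It held 0 UMIs in the Flt3-positive members of all 4 libraries from mice given LPS. Cd180, a receptor related to Toll-like receptor 4, stood at 376 and 321, at 14.6 and 33.7, and at 80.7 and 67.8 CPM (adjusted p = 0.00774). Its 2 UMIs in the LPS group made controls 16.8 times higher, with a 95% counting interval of 4.60 to 139. Cd81, a tetraspanin, stood at 349 and 396, at 14.6 and 0, and at 92.2 and 0 CPM (adjusted p = 0.00799). Flrt3, a gene that led the members in controls, stood at 383 and 351 CPM against 23.1 to 136 CPM and fell by 3.16 (adjusted p = 0.00866). Cd14, the LPS co-receptor, stood at 1644 and 2128 CPM against 321 to 1078 CPM and fell by 1.82 (adjusted p = 0.0364). These receptors moved in 1 direction while the pathogen-sensing list as a whole did not: of its 8 tested genes Cd14 fell, the lectin Clec4e rose, and the median log2 change was -0.37 against -0.02 over all genes.

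H2-Eb1, the MHC class II gene outside the rule with the highest level, stood at 5098 and 4902 CPM in the controls. It stood at 2600 and 2561 CPM after LPS and at 2663 and 2169 CPM after SLC activation and LPS. All 4 libraries from mice given LPS were near the same level, and H2-Eb1 fell by 1.20 on the log2 scale (SE 0.247, adjusted p = 0.029). The rule sets a floor on related MHC class II genes, so a cell that lost most of them would not be a member. It was the gene that passed among 10 tested of the MHC class II list, whose median was -0.20. Ciita, the master regulator of that pathway, did not pass in any comparison and stood at 34.2 and 51.4 CPM in the controls and 101 to 205 CPM elsewhere.

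Among secreted factors, Ccl22, a chemokine that draws T cells with Ccr4, stood at 267 and 253 CPM in the controls, 14.6 and 0 CPM after LPS, and 0 in both SLC+LPS libraries (adjusted p = 0.00774). It was found in 24 and 44 control members and in 1 member of the other libraries. Controls were 51.5 times higher than the 4 other libraries together, with a counting interval of 9.14 to 2045. Tnf stood at 612 and 888, at 409 and 101, and at 161 and 136 CPM, and fell by 2.02 (adjusted p = 0.0317). Il12b stood at 393 and 229 CPM, at 205 and 0 CPM, and at 0 (adjusted p = 0.0424), and the LPS value came from 1 cell, while the control values rest on the few members named above. Ccl2 and Ccl9, both monocyte-attracting chemokines, also fell, with 11.5 CPM or less in both SLC+LPS libraries for Ccl2. Mt1, a metallothionein and the passing gene among 9 tested of the glucocorticoid target list, stood at 574 and 407 CPM against 33.7 to 136 CPM and fell by 2.78 (adjusted p = 0.00799). The median of that list was -1.22.

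The 10 genes that rose were led by Ly6i, an interferon-inducible Ly6 surface protein. Ly6i stood at 0 and 8.56 CPM in the controls, 526 and 371 CPM after LPS, and 80.7 and 542 CPM after SLC activation and LPS, a rise of 5.39 on the log2 scale (SE 0.831, adjusted p = 0.00987). In LPS 2 its 11 UMIs came from 1 of 6 members, and in LPS 1 it was found in 12 of 17. Plac8, a gene of monocytes and plasmacytoid cells, stood at 140 and 118 CPM, at 1227 and 1045 CPM, and at 461 and 2643 CPM, a rise of 3.04 (SE 0.591, adjusted p = 0.0244). Cdh1 (E-cadherin), Fh1 and Mdh2 (enzymes of the citric acid cycle), Tap1 (the peptide transporter of MHC class I), Apobec3 and Clec4e also rose, with log2 changes of 3.04, 2.37, 1.70, 1.83, 1.57 and 1.37. Saa3, an acute phase protein, was absent from 203 control members and stood at 541 and 0 CPM after LPS and 461 and 339 CPM after SLC activation and LPS. It was at least 104-fold higher against a floor of 3 counts over the controls, and 49.6% of its level in the SLC+LPS group was expected from free RNA. In the monocyte-associated and inflammatory list 4 of 17 tested genes rose (Ly6i, Plac8, Saa3, Clec4e) and 2 fell (Cd14, Ccl2). The summed classical monocyte markers given above include Plac8, so their rise is not separate from it. Ccr2, of the same marker list, stood at 250 CPM in each control, 87.7 and 67.4 CPM after LPS, and 576 and 271 CPM after SLC activation and LPS.

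**Figure D2:**
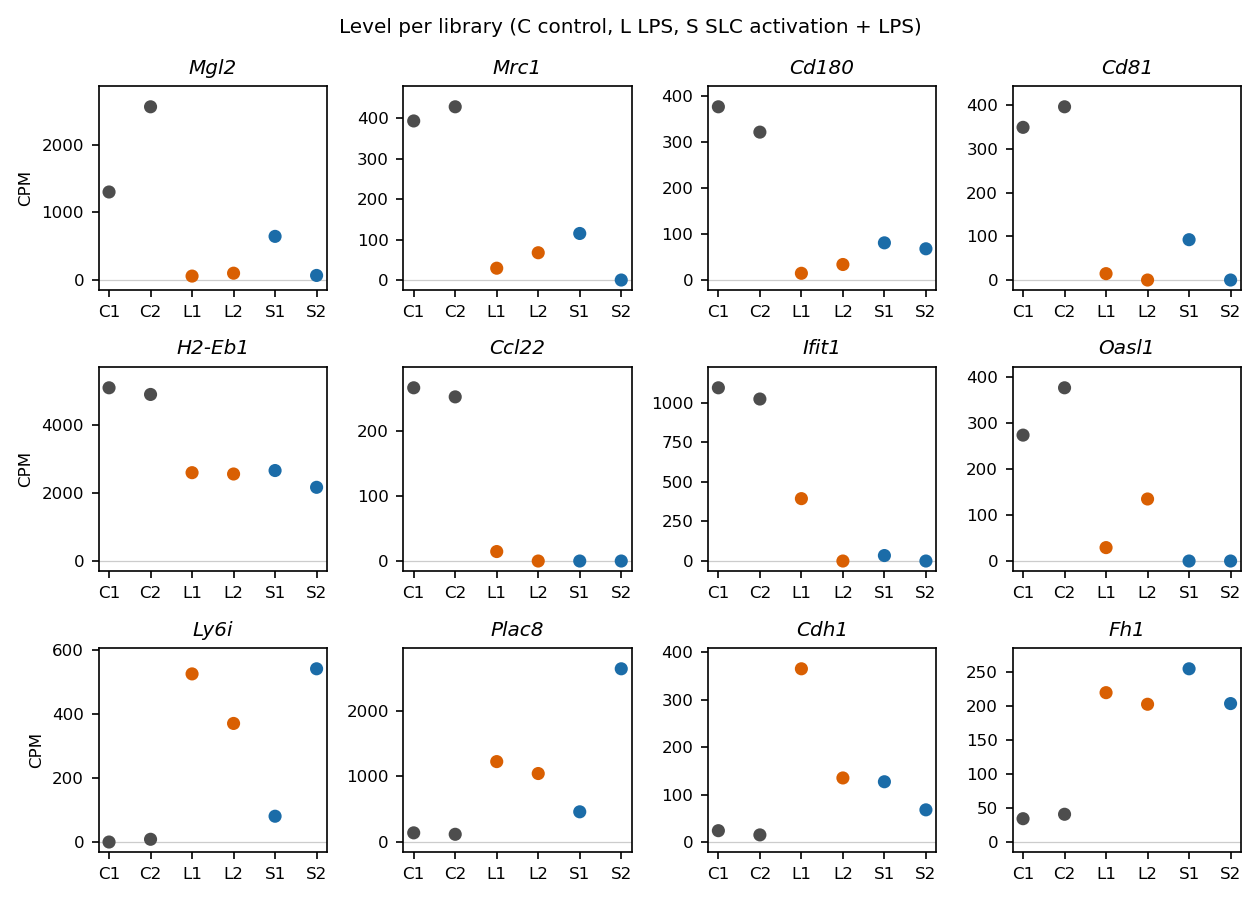
CPM in the members of each library (vertical axes start near 0) for 12 genes that passed across all 6 libraries; C1 and C2 are controls, L1 and L2 LPS, S1 and S2 SLC activation with LPS. For each gene, the 4 libraries from mice given LPS lie on 1 side of both controls; LPS 2 and SLC+LPS 2 rest on 6 cells each.

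The same direction appeared where every member carried Flt3. In those cells Mgl2 stood at 1359 and 2101 CPM in the controls and 0 to 230 CPM in the other libraries, and fell by 4.53 (adjusted p under the threshold in edgeR's fit of that subset). Ly6i stood at 0 and 6.49 CPM against 35.4 to 507 CPM, and Plac8 at 286 and 220 CPM against 531 to 1714 CPM, a rise of 2.01. H2-Eb1 stood at 5402 and 4338 CPM against 2057 to 2548 CPM, a log2 change of -1.16 that did not pass there. Of the genes that passed in all members 12 of 66 had over 25% of their level expected from free RNA, among them the stromal and club cell genes Gsn, Inmt, Timp3, Sod3 and Scgb1a1, which were higher in the controls. Leaving out the control members rich in such RNA, which kept 66 and 129 of them, gave 83 genes.

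Interferon-stimulated genes did not move as 1 group. They are switched on by a transcription factor complex that holds Irf9 and binds the interferon-stimulated response element (ISRE) in their promoters. Ifit1, an RNA-binding antiviral protein, stood at 1094 and 1023 CPM in the controls, 394 and 0 CPM after LPS, and 34.6 and 0 CPM after SLC activation and LPS. It was found in 47 of 69 and 84 of 134 control members, in 3 of 17 and 0 of 6 members after LPS, and in 3 of 20 and 0 of 6 after SLC activation and LPS. After thinning each member to 500 UMIs the shares of members with an Ifit1 UMI were 30.4% and 29.1% in the controls and 0% to 10% elsewhere. The other kept cells of the controls held a mean of 87.7 CPM. In LPS 1, 1 cell held 81.5% of the 27 Ifit1 UMIs, and the Flt3-positive members of both LPS libraries held 0.

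Ifit1 passed across all 6 libraries (adjusted p = 0.0186), as did Oasl1, Isg15 and Ifih1, all lower after LPS. Oasl1, a regulator of Irf7 translation, stood at 274 and 377 CPM in the controls, 29.2 and 135 CPM after LPS, and 0 in both SLC+LPS libraries. Isg15, a ubiquitin-like modifier, stood at 137 and 176, at 14.6 and 33.7, and at 0 and 67.8 CPM. Ifnb1, interferon beta itself, was among the genes that led control members, at 174 and 120 CPM, and stood at 43.8 and 0 CPM after LPS and at 0 after SLC activation and LPS. Not every gene of the list shared that order. Gbp2, a guanylate-binding GTPase, stood at 20.5 and 51.4, at 541 and 337, and at 23.1 and 949 CPM. It did not pass across all 6 libraries, and SLC+LPS 1 and SLC+LPS 2 stood far apart.

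The promoters of 4 genes of the list with low levels after SLC activation and LPS are shown, because the ISRE is the sequence that this group of genes is known for. Each line gives the 250 bases before the RefSeq start of the gene in build GRCm38.p6, on the gene's strand, 5′ to 3′. Capitals mark the core of the motif on either strand, which is GAAA, any 2 bases and again GAAA, and adjoining matches overlap. The windows are chr19:34640639-34640888 on the plus strand for Ifit1, chr4:156200819-156201068 on the minus strand for Isg15, chr12:26456453-26456702 on the minus strand for Rsad2 and chr5:114922990-114923239 on the plus strand for Oasl1.
Ifit1: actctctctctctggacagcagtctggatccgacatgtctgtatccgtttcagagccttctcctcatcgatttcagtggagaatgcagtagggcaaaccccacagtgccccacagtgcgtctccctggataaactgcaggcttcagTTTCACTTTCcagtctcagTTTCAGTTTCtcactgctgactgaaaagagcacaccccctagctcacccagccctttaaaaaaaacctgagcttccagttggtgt
Isg15: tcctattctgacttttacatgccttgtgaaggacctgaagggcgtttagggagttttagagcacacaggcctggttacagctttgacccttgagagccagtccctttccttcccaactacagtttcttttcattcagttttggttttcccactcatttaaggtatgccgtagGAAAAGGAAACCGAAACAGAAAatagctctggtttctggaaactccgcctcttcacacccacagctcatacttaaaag
Rsad2: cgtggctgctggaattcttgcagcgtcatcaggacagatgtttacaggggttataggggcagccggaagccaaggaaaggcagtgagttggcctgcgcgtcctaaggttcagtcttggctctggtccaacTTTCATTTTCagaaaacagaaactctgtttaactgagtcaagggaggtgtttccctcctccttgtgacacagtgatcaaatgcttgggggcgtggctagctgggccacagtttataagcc
Oasl1: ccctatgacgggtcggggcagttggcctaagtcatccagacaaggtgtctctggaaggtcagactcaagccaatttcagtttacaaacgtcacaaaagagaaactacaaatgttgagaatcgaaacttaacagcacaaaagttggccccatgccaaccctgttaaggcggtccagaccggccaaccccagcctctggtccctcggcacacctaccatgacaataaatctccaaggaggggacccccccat
The motif matched 2 times before Ifit1, 3 times before Isg15, 1 time before Rsad2 and 0 times before Oasl1. Ifit2, also low after SLC activation and LPS and not printed, has 2 RefSeq starts, and neither window (chr19:34550444-34550693 and chr19:34550838-34551087, plus strand) held a match. It was present in 978 of 32851 such windows of all genes (2.98%) and in 19 of 42 windows of the interferon-stimulated list (45.2%). A match is a description of the letters, and no binding was measured.

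Summed over the list, interferon-stimulated genes took a median of 0.442% and 0.494% of the UMIs of a member in the controls. The medians were 0.497% and 0.406% after LPS, and 0.168% and 0.764% after SLC activation and LPS. In LPS 1, 2 of 17 cells held 44.1% of the list's UMIs, and in control 1 the top 2 of 69 held 11.2%. SLC+LPS 1 was the lowest library and SLC+LPS 2 the highest, so the SLC+LPS group spanned the range of the others.

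**Figure D3:**
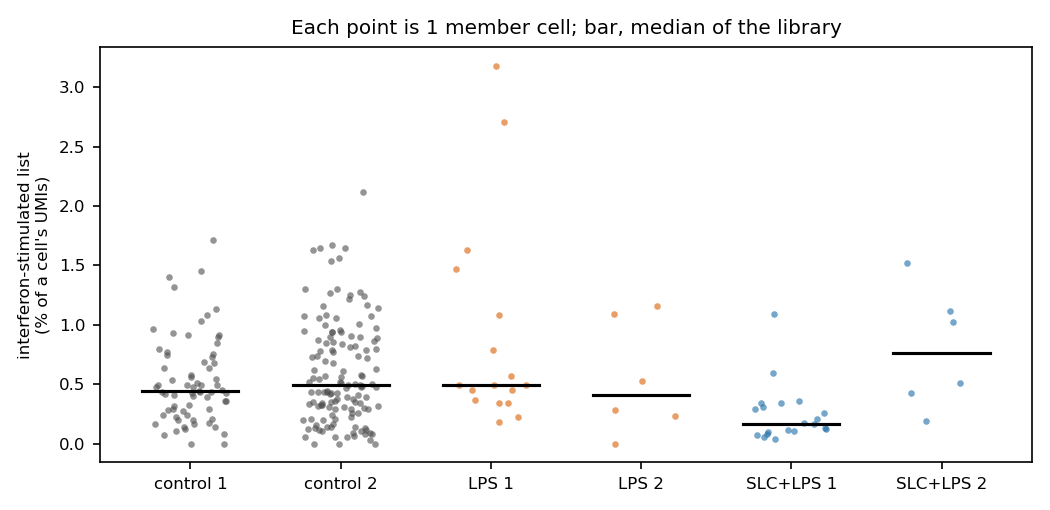
Percent of each member's UMIs that belong to the 45 interferon-stimulated genes, 1 point per cell and a bar at the median of each library. The medians of controls and LPS lie between 0.406% and 0.497%, SLC+LPS 1 lies at 0.168% and SLC+LPS 2 at 0.764%, and 2 cells of LPS 1 stand above 2.5%.

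LPS was next compared with control in the fit of the design (control 1, control 2, LPS 1). In LPS 1, 4 of 16 tested MHC class I genes, 5 of 22 monocyte-associated genes and 6 of 32 interferon-stimulated genes were higher, the last among them the GTPases Gbp2 and Gbp7. Lower were Irf4, Itgam and Ccr2 of the 24 tested cDC2 identity genes, 3 interferon-stimulated genes and 1 monocyte-associated gene. Of 4378 genes tested 147 passed (3.36%), 46 higher (1.05%) and 101 lower (2.31%), and 112 of them did not overlap when LPS 2 was included. With all 6 libraries 16 of 1949 passed (0.821%). Of the 131 passing genes that this fit could test, 129 had the same sign and 15 passed. Leaving out members with 4 or more UMIs of S100a8 and S100a9 together kept 66, 133, 16 and 18 members of control 1, control 2, LPS 1 and SLC+LPS 1, and then 20 genes passed. DESeq2 called 5. The all-library count of 16 became 85 without LPS 1, 28 without LPS 2, 34 without control 2, 2 without SLC+LPS 1 and 13 without SLC+LPS 2. With library totals in place of TMM scaling factors 85 were higher and 82 lower, and the median of all genes moved from -0.09 to 0.11.

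Among the 12 largest rises without overlap of the libraries were Ly6i, Cdh1, Gbp2, Irf8, Plac8, Cxcl3, AW112010, Gbp7, Fpr2, Lgals3bp and Fh1, with log2 changes from 6.33 to 2.32. For AW112010 the mean was highest in the SLC+LPS group, where 55.7% of its level was expected from free RNA, and this percent does not describe the LPS group. Irf8, the transcription factor of type 1 dendritic cells and monocytes, stood at 34.2 and 23.5 CPM in the controls and 292 and 135 CPM after LPS, a rise of 3.16 (adjusted p = 0.00597, and 0.0878 with all 6 libraries). Gbp2 rose by 3.61, and by 3.41 with all 6 libraries (adjusted p = 0.178). Its mean was also highest in the SLC+LPS group, where 57.5% of its level was expected from free RNA. Cxcl3, a neutrophil-attracting chemokine, stood at 92.3 and 44.9 CPM against 614 and 943 CPM, but 1 cell held 92.9% of its UMIs in LPS 1 and 1 cell held all 28 in LPS 2. Without members of 4 or more UMIs of S100a8 and S100a9, the log2 changes of Cxcl3 and of Fpr2, a formyl peptide receptor, were -0.59 and -0.72. Of the 24 named rises and falls 17 could be tested with all 6 libraries, and Ly6i, Cdh1, Cxcl3, Fh1 and Clec4b1 passed.

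Among the 12 largest falls were Pdlim1, Clec4b1, Prkce, Wnt11, Nedd4, Sult1a1, Gtsf2, Cd36, Il1rl1, St6gal1 and Cadm1. Each of these held at most 1 UMI per library after LPS except Cd36, with 2 UMIs in LPS 2, so counting limits the size. Free RNA was expected to give 64.5% of Cd36, 40.9% of Nedd4, 28.9% of Cadm1 and 25.6% of Prkce in the controls. Clec4b1 stood at 174 and 161 CPM in the controls and held 0 UMIs in both LPS libraries, at least 5.43-fold lower against a floor of 3 counts over the LPS group. Il1rl1, the interleukin 33 receptor, stood at 130 and 98.5 CPM and was at least 3.62-fold lower. Wnt11 stood at 188 and 122 CPM in the controls and at 0 and 33.7 CPM after LPS. Irf4 stood at 82.1 and 89.9 CPM in the controls and held 0 UMIs after LPS (adjusted p = 0.0493, at least 2.84-fold lower), and 1 UMI after SLC activation and LPS.

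In the MHC class I list 4 of 16 tested genes rose in LPS 1 and none fell. These were B2m, the light chain (2506 and 1789 CPM in controls, 4850 and 4751 CPM after LPS), the heavy chain genes H2-K1 and H2-Q7, and Tap1, with log2 changes of 0.98, 0.91, 1.36 and 2.27. All 16 tested genes had a positive sign, and their median was 1.00 against -0.09 over all genes. With all 6 libraries none of 9 tested passed, at a median of 0.98. H2-Q7 shares sequence with other Qa genes, which counting can split. In the interferon list 6 of 32 rose (among them Rsad2, Ifitm1, Cxcl9, Gbp2 and Gbp7) and 3 fell (Isg15, Ifit1, Oasl1), with a median of 0.98, and none of 20 passed with all 6 libraries. Rsad2, the antiviral enzyme viperin, stood at 376 and 398 CPM in the controls and at 1373 and 33.7 CPM after LPS. In LPS 1, 1 cell held 69.1% of its UMIs. Its log2 change of 1.63 changed sign in Flt3-positive members and in the 6 libraries without LPS 1. Cxcl9, with 424 CPM in LPS 1 and 0 in LPS 2, also changed sign without LPS 1.

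SLC activation with LPS was compared with control in the same fit (control 1, control 2, SLC+LPS 1). In SLC+LPS 1, 9 of 26 tested cytokine and chemokine genes, 6 of 20 maturation genes and 7 of 15 glucocorticoid targets were lower, 3 cytokine genes and 5 of 17 cell cycle genes were higher, and none of these passed with all 6 libraries. Of 4378 genes 213 passed (4.87%), 42 higher (0.959%) and 171 lower (3.91%), and 178 did not overlap when SLC+LPS 2 was included. With all 6 libraries edgeR called 0 of 1949 (0%), with 272 at an unadjusted p under 0.05, and DESeq2 called 9. All 178 of the passing genes that this fit could test kept their sign. Without members of 4 or more UMIs of S100a8 and S100a9, 18 passed, and DESeq2 called 15 with the design's libraries. The all-library count of 0 became 32 without control 1, 33 without control 2, 131 without LPS 1 and 110 without LPS 2, and was 0 without either SLC+LPS library. With library totals in place of TMM factors 88 were higher and 99 lower, and the median of all genes moved from -0.05 to 0.24.

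Among the 12 largest rises were Saa3, Mcm6, Mid1, Lcn2, Osm, Bak1, Cdh1, Fh1, Hspa1a, Arg2 and Spint1, and the 12 largest falls were Rsad2, Oasl1, Il12b, Ccl22, Ifit2, Casp4, Prkce, Isg15, Ifnb1, Sult1a1, Gtsf2 and Cd36. Osm, the cytokine oncostatin M, stood at 44.4 and 21.4 CPM in the controls and at 392 and 136 CPM after SLC activation and LPS, a rise of 3.34 (adjusted p = 0.00187, and 0.0804 with all 6 libraries). Free RNA was expected to give 69.0% of Lcn2, 65.6% of Arg2 and 45.6% of Mid1, and among the falls 64.5% of Cd36 and 25.6% of Prkce. Ifit2 stood at 202 and 300 CPM in the controls and held 0 UMIs in both SLC+LPS libraries, at least 8.86-fold lower against a floor of 3 counts over the group. By the same bound Oasl1 was at least 11.4-fold, Il12b 9.89-fold, Ccl22 8.73-fold and Ifnb1 4.77-fold lower. For Ifit1, with 3 UMIs in the group, controls were 35.5 times higher (95% counting interval 12.1 to 173). Casp4 stood at 229 and 240 CPM in the controls, 0 CPM in SLC+LPS 1 and 203 CPM in SLC+LPS 2. Its log2 change of -8.80 became -3.06 with all 6 libraries (adjusted p = 0.144).

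In the cytokine and chemokine list 9 of 26 tested genes fell in SLC+LPS 1 and 3 rose, with a median of -1.02. Tnf, Il12b, Ccl4, Ccl9, Cxcl1, Cxcl10, Cxcl16, Tnfaip3 and Tnip3 fell, and Osm, Ccl3 and Il1rn rose. Tnip3, an inhibitor of NF-kB signalling, stood at 643 and 664 CPM in the controls and at 173 and 203 CPM, and fell by 2.21 (adjusted p = 0.00205, and 0.135 with all 6). In the maturation list 6 of 20 fell (Cd40, Cd86, Cd83, Ccl22, Ccl5, Il12b) and none rose, with a median of -1.18. Cd83 stood at 1166 and 1436 CPM against 507 and 542 CPM, and Ccl5, a chemokine of T cells and monocytes, at 1737 and 3097 CPM against 34.6 and 339 CPM. In the interferon list 9 of 32 fell and Ifitm1 rose, with a median of -2.35 (-0.32 with all 6 libraries). In the glucocorticoid list 7 of 15 fell (Tsc22d3, Klf6, Sgk1, Mt1, Mt2, Errfi1, Anxa1), with a median of -1.79, while LPS against control gave 3 of 15 (Cebpd, Mt1, Mt2) and a median of -0.91. Klf6 stood at 1819 and 2536 CPM in the controls and at 738 and 1220 CPM after SLC activation and LPS.

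Cell cycle genes gave 5 rises among 17 tested (Top2a, Ccna2, Mcm6, Hmgb2, Tubb5) and a median of 1.62. Ccna2, a cyclin of DNA replication, stood at 3.42 and 10.7 CPM in the controls, 219 CPM in SLC+LPS 1 and 0 in SLC+LPS 2. Its 19 UMIs in SLC+LPS 1 came from 2 of 20 members, and 1 cell held 63.2%. Hmgb2, a chromatin protein, stood at 144 and 148 CPM in the controls and at 438 and 67.8 CPM, and without SLC+LPS 1 its log2 change was -1.44. Mcm6, a subunit of the replicative helicase, stood at 3.42 and 6.42 CPM against 115 and 67.8 CPM. Against control, none of the cell cycle list passed in LPS 1, where the median was 0.94, and none passed with all 6 libraries. The adrenergic and cAMP list, which covers signalling through cAMP, had 13 tested genes. Nr4a3, a nuclear receptor, stood at 1429 and 1370 CPM in the controls, 833 and 1685 CPM after LPS, and 519 and 881 CPM after SLC activation and LPS. It fell in LPS 1 and in SLC+LPS 1, but LPS 2 lay above both controls, and with all 6 libraries neither comparison passed (log2 change -0.37 with adjusted p = 0.705 for LPS, -1.36 with adjusted p = 0.144 for SLC activation and LPS). Pde4b, a cAMP phosphodiesterase, fell in SLC+LPS 1, from 602 and 591 CPM in the controls to 242 CPM, with 339 CPM in SLC+LPS 2.

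**Figure D4:**
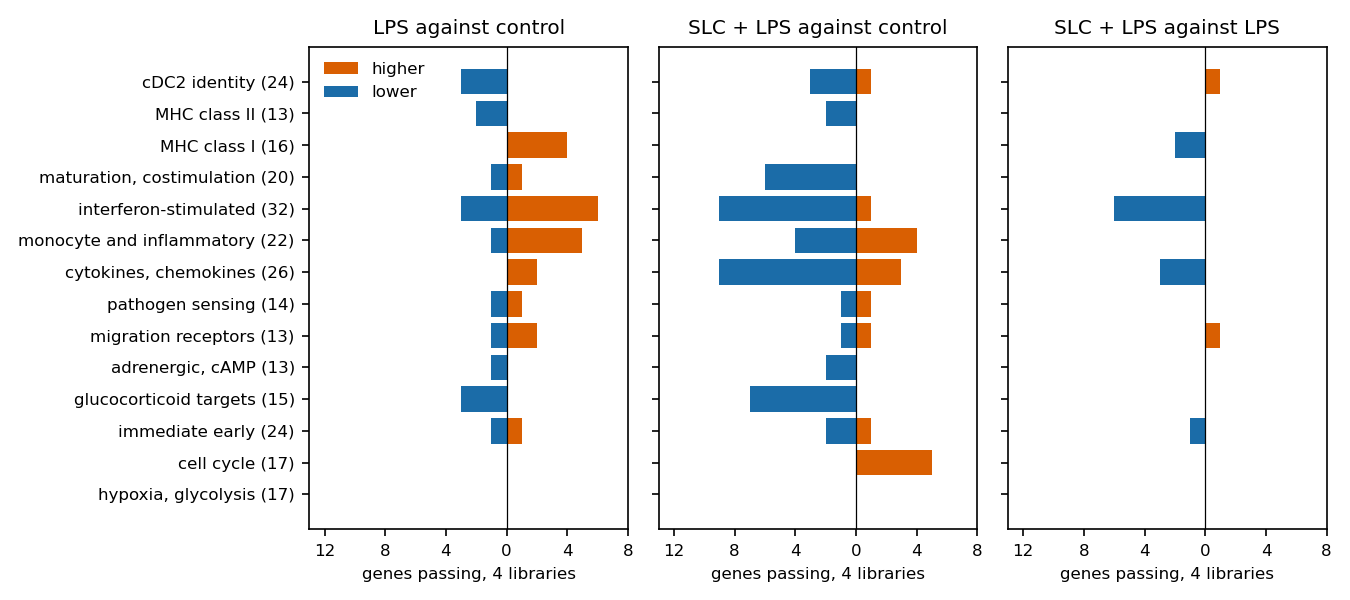
Number of genes per list that passed at adjusted p under 0.05, higher to the right and lower to the left of 0, in the 3 comparisons of the design's 4 libraries; the number of tested genes stands beside each list. Against control, SLC+LPS 1 has 9 lower genes each in the interferon and cytokine lists and 7 among glucocorticoid targets, and LPS 1 has 6 higher interferon genes.

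Passing genes of the other lists follow, to be read beside the shares over all genes given above for each comparison. The monocyte-associated list had a median log2 change of 0.49 in LPS 1 (-0.09 over all genes). In SLC+LPS 1 its median was -0.04 (-0.05 over all genes). In the cDC2 identity list 3 of 24 tested genes fell in LPS 1 (Irf4, Itgam, Ccr2), and in SLC+LPS 1 Irf4, Id2 and Tnfsf9 fell and Csf1r rose. Csf1r stood at 178 and 261 CPM in the controls and at 634 and 67.8 CPM after SLC activation and LPS, and its log2 change was -2.04 without SLC+LPS 1. The MHC class II list gave H2-Eb1 and Cd36 lower in both. In the monocyte-associated list 5 rose and 1 fell of 22 in LPS 1, and 4 rose and 4 fell in SLC+LPS 1. Pathogen sensing gave Clec4e higher and Cd14 lower of 14 in each. Among 13 migration receptors, Fpr2 was higher and Ccr2 lower in LPS 1, and Itgal was lower in SLC+LPS 1. Maturation genes gave Cd274 higher and Ccl22 lower of 20 in LPS 1, and cytokines gave Cxcl3 and Cxcl9 higher of 26. Immediate early genes gave Hspa1a higher and Btg1 lower of 24 in LPS 1, and Atf3 as well lower in SLC+LPS 1. In LPS 1, 1 cell held 80.8% of the Hspa1a UMIs and LPS 2 held 0, while Btg1 stood at 947 and 843 CPM in the controls and at 380 and 1280 CPM after LPS. Without LPS 1 the log2 change of Btg1 was 0.16 and that of Hspa1a was negative. Hypoxia and glycolysis genes gave none of 17 in either.

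The effect of SLC activation in mice given LPS was compared between SLC+LPS 1 and LPS 1. Ccr2, Alox5 and Pid1 were higher and Irf8, Egr1 and B2m lower in SLC+LPS 1. Of 4378 genes 21 passed (0.48%), 4 higher (0.0914%) and 17 lower (0.388%). When LPS 2 and SLC+LPS 2 were included, the groups overlapped for all of the 21 but those 6. With all 6 libraries edgeR and DESeq2 each called 0 of 1949, with 124 and 61 at an unadjusted p under 0.05. Both groups of this contrast had 1 library in the fit of the design, so it rests on the spread between the controls. Without the share over all tested genes, the lack of overlap does not set the 6 named genes apart. The all-library count became 17 without LPS 1, 6 without control 1, 5 without control 2 and 4 without LPS 2.

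Ccr2, the receptor that brings monocytes and pre-dendritic cells into tissue, stood at 87.7 and 67.4 CPM after LPS and at 576 and 271 CPM after SLC activation and LPS, with 250 CPM in each control. It was higher by 2.62 on the log2 scale (SE 0.439, adjusted p = 0.0226, and 0.554 with all 6 libraries). Pid1 stood at 29.2 and 33.7 CPM against 334 and 407 CPM, near the controls' 284 and 372 CPM (adjusted p = 0.029). Alox5, the 5-lipoxygenase that makes leukotrienes, held 1 UMI after LPS and 23 after SLC activation and LPS, 22.2 times higher with a counting interval of 3.61 to 916. In SLC+LPS 1, 6 cells held its 18 UMIs and 1 of them 61.1%, and the 5 UMIs of SLC+LPS 2 came from 1 cell. Irf8 went the other way, with 292 and 135 CPM against 0 and 67.8 CPM. B2m stood at 4850 and 4751 CPM against 1810 and 3524 CPM, and Egr1 at 847 and 270 CPM against 254 and 203 CPM. In the interferon list 6 of 32 were lower in SLC+LPS 1 (Ifit1, Ifit2, Rsad2, Oasl2, Cxcl9, Gbp2), with a median of -3.14, and with all 6 libraries none of 20 passed and the median was -1.13. For Ifit1 and Cxcl9, leaving LPS 1 out of the 6 libraries turned the log2 change positive. In the other lists B2m and H2-K1 of MHC class I, Ccl4, Cxcl1 and Cxcl9 of the cytokines and Egr1 of the immediate early genes were lower, Ccr2 was higher in 2 lists, and none passed in the rest.

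Neighbouring dendritic cells, chosen by changed forms of the rule, are given beside the members. No test was made, since several of their libraries held under 10 cells. Type 1 cells (an Xcr1 or Clec9a UMI) numbered 137, 197, 16, 6, 11 and 9 cells, a mean share 15.8 times higher in controls than after LPS. Only 79, 106, 8, 4, 8 and 3 cells failed the Xcr1 and Clec9a criterion alone. The other type 1 cells thus failed a further criterion, so levels in type 1 cells, Cd209a included, are not from cells selected like the members. Ccr7-positive cells numbered 59, 39, 22, 4, 14 and 19 cells, a ratio of 4. Ifit1 stood at 54.3 and 39.1 CPM in type 1 cells of the controls and at 1369 and 1387 CPM in Ccr7-positive cells, beside 1094 and 1023 CPM in cDC2. Cd209a stood at 110 and 35.3 CPM in type 1 cells and 2345 and 1355 CPM in Ccr7-positive cells of the controls. Plac8 stood at 38.8 and 121 CPM in type 1 cells of the controls and at 1009 to 1211 CPM in the 4 libraries from mice given LPS. Mrc1 stood at 200 and 95.9 CPM in type 1 cells of the controls and 0 to 67.4 CPM after LPS with or without SLC activation, and in Ccr7-positive cells at 281 and 348 CPM against 0 to 16.8 CPM.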

How the data were processed

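Lungs of 6 mice were measured with BD Rhapsody whole transcriptome libraries read on DNBSEQ-T7, per the labels' protocols. The authors deposited raw UMI counts per gene and barcode, unfiltered, 1 matrix per mouse. GRCm39 and mm39 are named in the submitters' processing notes, and no aligner or counter is named in them; these are not given in the sources used here. Members and gene lists were chosen with earlier results of these data known, and the lists support nothing by themselves. UMIs of the members were summed per library and tested with edgeR 4.0.16 in R 4.3.3 (filterByExpr, TMM factors, robust quasi-likelihood fit, Benjamini-Hochberg adjustment), with DESeq2 1.42.0 as an alternative and Python 3.11.15 and scanpy 1.11.5 for the matrices. The procedure was also run on simulated counts with the same spread for every gene and library. That simulation held no concentration of UMIs in single cells, so it does not cover genes whose UMIs came from few members. Log2 changes are those edgeR fitted. The design required 10 members per library, so LPS 2 and SLC+LPS 2 entered only the fits of all 6 libraries, which were added after the data were seen, as were the contrast of both LPS groups with control the filter on stromal UMIs and the shares with no limit on Ly6c2. Genes of the rule were not tested. Named genes were, per comparison of the design, the 12 largest passing changes in each direction, provided that libraries of both groups did not overlap and that the group mean reached 50 CPM on the higher side; not eligible were predicted, clone, Rik, mitochondrial, ribosomal, haemoglobin and receptor segment genes. To these came the 2 to 4 genes of each list with the smallest p and at least 20 CPM in 1 group, the genes of the rule and the 15 leading genes. Other genes, among them those named in the contrast of both LPS groups with control, were chosen after their values were seen. Doublets were not removed in the main analysis; Scrublet called 0% to 2.14% of kept cells, with almost none in the SLC+LPS libraries, so it did not work there, and leaving out the top 6% of scores is an alternative. Promoters came from RefSeq, GRCm38.p6, another build than that of the files. Intervals and floors of 3 counts cover counting error only. Results on some genes are not reported here, so lists of named genes can be shorter than their counts.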

Additional observations from a re-analysis of the deposited data

How the results depend on the processing

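For LPS against control the 147 genes of the design's 4 libraries became 5 with DESeq2, 327 with no filter on low counts, 80 with stricter cells (1000 UMIs, 500 genes, 10% mitochondrial), 30 without the top 6% of doublet scores, 20 with under 4 UMIs of S100a8 and S100a9, 16 with all 6 libraries and 10 with all 6 and DESeq2. The count was 2 to 85 (13, 23, 28 and 34 between) when 1 of the 6 libraries was left out. For SLC activation and LPS against control the 213 became 15, 399, 132, 68, 18, 0 and 9 in that order, and 141 with Flt3 required. The count was 0 to 131 (32, 33 and 110 between) when 1 of the 6 libraries was left out. For SLC activation and LPS against LPS the 21 became 0, 47, 3, 1, 1, 0 and 0, 11 with at least 20 UMIs of MHC class II, and 0 to 17 when 1 library was left out. For both LPS groups against control the 66 became 33 with Flt3 required, 39 with stricter cells, 38 without TMM factors, 348 with no filter on low counts, 30 with DESeq2, and 8 to 187 (30, 39, 52 and 169 between) when 1 library was left out. Replicate numbers did not pair the samples (correlations of deviations 0.14, 0.03 and -0.03). A replicate block over all 6 libraries gave 23, 11, 0 and 57 genes in these 4 comparisons. The cause of these changes was not tested, apart from fewer genes or libraries in the fit. The settings tested different numbers of genes, so a higher count need not be a higher share. With no filter on low counts the design's fit tested 14126 genes, and with Flt3 required 2012. For both LPS groups against control 14233 genes were tested with no filter. There 2.45% passed, beside 3.39% with the filter.

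The mean share of members in controls was 1.21% with stricter cells and 0.276% with Flt3 required, and among cells that are not neutrophils it was 0.145% after LPS and 0.184% after SLC activation and LPS. With no limit on Ly6c2 it was 0.220% after LPS and 0.175% after SLC activation and LPS. For LPS against control, log2 changes changed sign without LPS 1 for Btg1 (0.16), Cxcl9 (-5.06), Hspa1a (-6.79) and Rsad2 (-3.84), with under 4 UMIs of S100a8 and S100a9 for Cxcl3 (-0.59) and Fpr2 (-0.72), and with Flt3 required for Rsad2 (-4.26). For SLC activation and LPS against control they did so without SLC+LPS 1 for Csf1r (-2.04) and Hmgb2 (-1.44). For SLC activation and LPS against LPS they did so without SLC+LPS 1 for AW112010 (0.91) and Gbp2 (0.89), without LPS 1 for Ccl4 (1.35), Cxcl9 (5.32) and Ifit1 (5.17), and with Flt3 required for Ifit1 (3.59). Several rest on groups at 0 UMIs and bound nothing. None of the named genes of both LPS groups against control changed sign in the alternatives run. Leaving out either control of the 4 libraries was not run, since no residual degrees of freedom remain. Leaving out LPS 1 or SLC+LPS 1 kept 1 treated library in the fit, and those counts are not reported here. With 6 members in LPS 2 and in SLC+LPS 2, 1 UMI is worth 33.7 and 67.8 CPM.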
